A study of Mus musculus with 8 samples.

Results

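The genes described here are 37 receptor tyrosine kinases, taken by gene symbol from a table of read counts for 35275 mouse genes. They cover the EGF, FGF, MET, insulin, PDGF, TAM, discoidin, neurotrophin, RET, ALK, MuSK and Eph receptor families, and leave out the receptors for VEGF and the angiopoietins and those that bind Wnts. All 37 were found, and 33 had enough counts to be tested. Erbb4, Ntrk3, Alk and Epha5 did not.

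The transcripts of 8 mouse tumours were measured by bulk RNA sequencing. In 4 primary peritoneal tumours, numbered 13, 14A, 59 and 61, all 3 of Nf2, Cdkn2a and Pak2 were floxed (f/f), and the labels call these tumours Pak2 -/-. A secondary tumour, 14B, has the same genotype label. The reference was 3 primary peritoneal tumours, 19, 20 and 127, with floxed Nf2 and Cdkn2a and wild-type Pak2. An adenovirus carrying Cre recombinase had been injected into the peritoneal cavity in all cases, so every group shares the floxed Nf2 and Cdkn2a alleles and the Cre virus, and no promoter restricts Cre to a cell type in the labels. The labels give neither the age nor the sex of the mice, nor whether tumours of a group, or 14A and 14B, came from separate animals, and p-values therefore speak only of the spread among the tumours compared, part of which may be technical. The design text asks how the genotypes differ in transcripts as mesothelioma forms.

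Tumour 14B had the fewest counts, 13469851, and tumour 14A the most, 20402401. Levels are given in CPM, in which the counts of a gene are scaled to a common library size, and 3 counts, the limit that a count of 0 allows, correspond to 0.139 to 0.311 CPM (counting error only). Pak2 itself had 131 to 238 CPM in primary tumours labelled Pak2-null, 239 CPM in tumour 14B and 90.1 to 128 CPM in wild-type tumours. It was not lower where the labels give it as deleted. Nf2 had 74.6 to 118 CPM in primary tumours labelled Pak2-null, 86.9 CPM in 14B and 104 to 142 CPM in wild-type tumours, and Cdkn2a 3.89 to 5.70, 6.43 and 2.37 to 3.15 CPM in the same order of groups. Counts per gene do not show whether an exon of any of the 3 is missing. Tumours 14A and 14B stood apart from the rest, with 8210 and 7570 CPM summed over 8 macrophage markers, against 1131 to 3332 CPM in the other 6 tumours. They had 1151 and 1784 CPM over 8 fibroblast markers, where the others had 7125 to 11897 CPM. The macrophage markers did not all move together. Among the primary tumours, C1qa, C1qb, C1qc, Cd68 and Timd4 were highest in 14A. Mrc1 and Cd163 were lowest there, at 48.8 and 11.9 CPM, and Csf1r was neither. Xist stood at up to 1.33 CPM in tumours labelled Pak2-null and at 151, 459 and 26.6 CPM in wild-type tumours 19, 20 and 127. Ddx3y, on the Y chromosome, had 85.4 to 104 CPM in primary tumours labelled Pak2-null, 84.2 CPM in 14B and 1.62, 1.24 and 116 CPM in wild-type tumours 19, 20 and 127, and the part of sex in the results was not tested. The 9 mesothelial markers summed to 52.8 to 199 CPM in primary tumours labelled Pak2-null, 133 CPM in 14B and 53.6 to 183 CPM in wild-type tumours. None had a count of 0 in any tumour. In primary tumours labelled Pak2-null, however, Bnc1 went down to 0.0619 CPM and Upk3b and Lrrn4 to 0.124 CPM, under the limit of 3 counts.

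Receptor tyrosine kinases are single-pass membrane proteins that bind a ligand outside the cell, pair up and phosphorylate each other's tails. The phosphorylated tails recruit adaptors that feed the RAS-ERK, PI3K and phospholipase C pathways, while ubiquitin ligases, phosphatases and ERK-induced feedback proteins limit the signal. Merlin, the product of Nf2, is known to restrain several of these receptors at the cell surface, and p21-activated kinases act downstream of them through Rac and Cdc42.

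The promoters of Fgfr4, Musk and Axl are shown because Fgfr4 and Musk had the most negative log2 fold changes among the members and Axl the lowest p among those that were higher. Each is the 250 bases before the RefSeq start on GRCm38.p6, written 5′ to 3′ on the gene's own strand, with E-boxes (CANNTG, the letters that MyoD-family factors bind) in capitals for the first pair. Fgfr4 lies at chr13:55152568-55152817 on the plus strand, and its deposited gene model begins inside this window. Musk lies at chr4:58285712-58285961 on the plus strand. Axl lies at chr7:25788734-25788983 on the minus strand. The Axl window holds no CANNTG, and its capitals mark CATTCC, the core letters of TEAD sites, read here on the opposite strand.
Fgfr4: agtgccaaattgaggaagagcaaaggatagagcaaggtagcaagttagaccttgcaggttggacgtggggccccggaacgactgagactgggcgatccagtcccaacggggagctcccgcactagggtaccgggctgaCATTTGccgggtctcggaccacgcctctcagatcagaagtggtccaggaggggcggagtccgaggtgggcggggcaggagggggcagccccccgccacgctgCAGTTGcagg
Musk: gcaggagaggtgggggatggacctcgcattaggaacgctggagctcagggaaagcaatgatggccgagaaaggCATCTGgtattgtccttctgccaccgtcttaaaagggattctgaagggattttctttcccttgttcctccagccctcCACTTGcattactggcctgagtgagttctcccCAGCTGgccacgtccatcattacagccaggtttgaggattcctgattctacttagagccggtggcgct
Axl: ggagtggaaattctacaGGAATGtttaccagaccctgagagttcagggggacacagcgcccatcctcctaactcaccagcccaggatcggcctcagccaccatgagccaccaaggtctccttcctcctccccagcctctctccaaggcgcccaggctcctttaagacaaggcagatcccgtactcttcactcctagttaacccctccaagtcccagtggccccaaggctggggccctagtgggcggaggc

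Fgfr4 held 2 E-boxes, CATTTG at position -112 and CAGTTG at position -10, counted back from the RefSeq start. Musk held 3, of which CAGCTG at position -68 is the form that muscle factors favour. CANNTG was searched on both strands and is its own reverse complement. It was present in 66.2% of all 32851 promoters in the RefSeq table and in 19 of the 38 promoters (50.0%) of the 31 members that matched. CAGCTG, a subset of CANNTG, was found in 13.0% of all promoters and in 6 of the members' promoters. CATTCC, on either strand, was found in 12.6% of all and in 6 of the members', and TGANTCA, the letters of an AP-1 site, in 6.75% of all and in 2 of the members'. The members' promoters were rich in CpG, with a median observed over expected ratio of 0.599, against 0.373 over all promoters. These matches describe letters only.

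No member passed edgeR's quasi-likelihood test at a Benjamini-Hochberg adjusted p under 0.05, at which 0.0714% of all 15412 tested genes passed, 3 higher and 8 lower. At an unadjusted p under 0.05, 5 members were lower in tumours labelled Pak2-null, where 8.55% of all tested genes were lower, and 1 was higher, where 4.39% were. The lower ones were Fgfr3, Fgfr4, Ntrk2, Musk and Ephb2, and the higher one was Axl. Without tumour 14A the counts were 6 lower and 3 higher, still with 0 members passing the adjusted test. In that fit 2543 of 15086 tested genes had an unadjusted p under 0.05 in either direction, against 1995 of 15412 with 14A. In 6 members, those 5 and Ephb3, all 4 primary tumours labelled Pak2-null lay below all 3 wild-type tumours (8.93% of all tested genes), and in 0 they lay above (5.07%). Over the 33 tested members the median log2 fold change was -0.38, beside 0.06 over all tested genes, with 18 members below 0 and 15 above.

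The adjusted calls depended on the tool. DESeq2's Wald test passed Axl as higher and Fgfr3, Fgfr4, Ntrk2, Musk and Ephb2 as lower, in a fit where 2.08% of genes passed as higher and 5.63% as lower. Limma-voom with sample quality weights passed Axl as higher and Ntrk2 and Musk as lower (1.58% and 4.59% of all genes). Limma-voom without weights passed 0 members, with 0.0324% of all genes as higher and 0.13% as lower. Leaving out wild-type tumour 19 let edgeR pass Fgfr4 as lower (0.345% of all genes, and 0.0251% as higher), as did adding 14B to its group (1.08% and 0.148%).

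**Figure D1:**
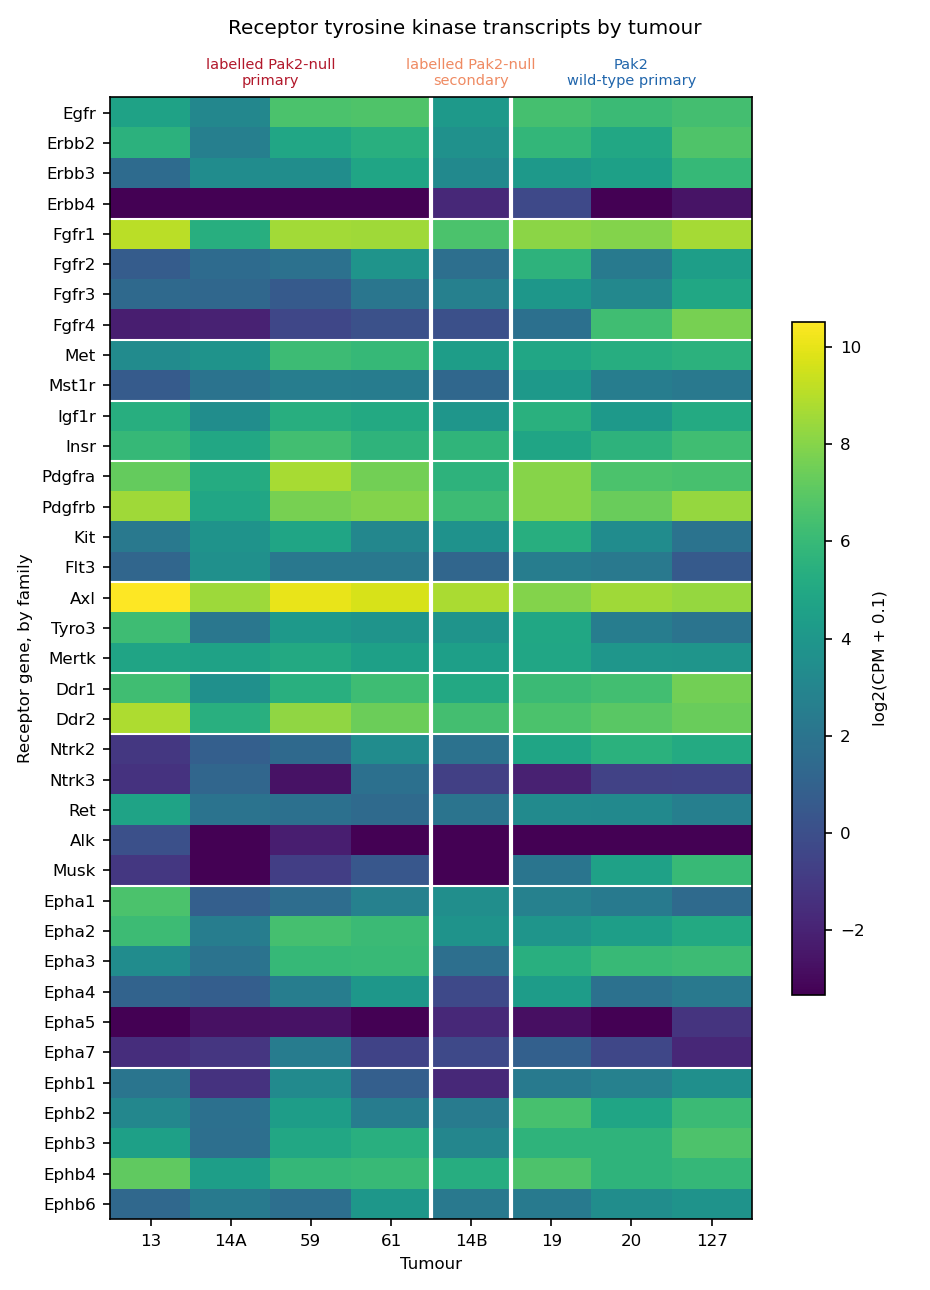
Level of each receptor tyrosine kinase (rows, by family, separated by white lines) in each of the 8 tumours (columns), as log2 of CPM plus 0.1. Fgfr4 and Musk are dark in tumours labelled Pak2-null and bright in wild-type tumours 20 and 127. Axl is the brightest row in every tumour labelled Pak2-null and in wild-type tumour 20, but not in the remaining wild-type tumours.

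The FGF receptors bind fibroblast growth factors together with heparan sulphate, and Fgfr4 is known for its expression in embryonic muscle precursors, regenerating muscle and rhabdomyosarcoma. Fgfr4 (chromosome 13, 55152640 to 55168759) stood at 0.124, 0.154, 0.679 and 0.982 CPM in tumours 13, 14A, 59 and 61 labelled Pak2-null, at 0.933 CPM in 14B and at 3.38, 77.4 and 202 CPM in wild-type tumours 19, 20 and 127. Every tumour labelled Pak2-null lay below every wild-type tumour, and tumours 20 and 127 were far above tumour 19. The means were 0.485 ± 0.418 CPM in tumours labelled Pak2-null and 94.1 ± 100 CPM in the wild-type tumours (SD, n = 4 and n = 3). The log2 fold change was -7.57 (SE 1.41), with a Benjamini-Hochberg adjusted p of 0.110 in edgeR's quasi-likelihood test. Its size is uncertain, because Fgfr4 had only 2, 3, 11 and 17 counts in tumours 13, 14A, 59 and 61. Over 18 alternatives by edgeR, DESeq2 or limma the adjusted p for Fgfr4 ran from 2.1e-08 to 0.463, and it was 0.0452 without wild-type tumour 19 and 0.0455 with 14B added, a fit that counts 14A and 14B as separate replicates. In bulk tissue, fewer cells of a type and less RNA per cell cannot be told apart.

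Fgfr3, a receptor that restrains bone growth, stood at 2.54, 2.36, 1.42 and 4.16 CPM in tumours 13, 14A, 59 and 61 labelled Pak2-null, at 6.32 CPM in 14B and at 15.8, 8.63 and 30.7 CPM in wild-type tumours 19, 20 and 127. The groups did not overlap, and 14B lay between them. The log2 fold change was -2.79 (SE 0.55), and edgeR's quasi-likelihood test gave a Benjamini-Hochberg adjusted p of 0.114. Fgfr3 shares 998 exonic bases with the opposite-strand transcript G630022F23Rik, and without a stated strand setting their reads cannot be told apart. Fgfr2, the receptor for FGF7 and FGF10 on epithelia, had 1.55, 2.78, 3.52 and 14.4 CPM in tumours 13, 14A, 59 and 61 labelled Pak2-null, 3.21 CPM in 14B and 48.3, 5.09 and 21.3 CPM in wild-type tumours 19, 20 and 127. Tumour 61 lay within the wild-type range, and the log2 fold change was -2.15 (SE 0.95). Its exons share 314 bases with Ctbp2 on the same strand, where the counting could split reads.

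Fgfr1, the receptor of mesenchymal cells, was the second highest member per length, with a median of 73.2 CPM per kilobase over the 7 primary tumours. It stood at 545, 40.0, 384 and 369 CPM in tumours 13, 14A, 59 and 61 labelled Pak2-null, at 97.9 CPM in 14B and at 274, 242 and 400 CPM in wild-type tumours. Tumour 14A was the low point, the wild-type tumours lay inside the range of the others, and the log2 fold change was 0.15 (SE 0.73), or -0.19 without tumour 13.

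Among 18 FGF ligand genes, 7 could be tested, with 0 passing, 2 lower and 0 higher at an unadjusted p under 0.05. Those 2 were Fgf18 and Fgf9, both of which signal through FGFR3 among other receptors. Fgf18 stood at 1.98, 1.13, 3.33 and 1.27 CPM in tumours 13, 14A, 59 and 61 labelled Pak2-null, at 1.66 CPM in 14B and at 9.74, 14.6 and 24.6 CPM in wild-type tumours (log2 fold change -3.05, SE 0.54). Fgf9 had 0.116 to 0.617 CPM in primary tumours labelled Pak2-null, 0.933 CPM in 14B and 2.78 to 6.67 CPM in the wild-type tumours (log2 fold change -3.73, SE 0.69). In both the groups were separate, and edgeR's quasi-likelihood test gave Benjamini-Hochberg adjusted p values of 0.104 and 0.109. Fgf21, an endocrine FGF that needs Klotho proteins, had a log2 fold change of -3.40 (SE 1.56), and Fgf1, which binds all FGF receptors, one of 1.09 (SE 0.91). Of 13 co-receptor and binding-protein genes, 12 were tested, with 3 lower and 0 higher at an unadjusted p under 0.05: the glypicans Gpc3 (log2 fold change -5.03, SE 1.30) and Gpc1 (-2.17, SE 0.78), and Fgfrl1 (-1.48, SE 0.63), a receptor without a kinase domain. Gpc3 stood at 0.124 to 7.66 CPM in primary tumours labelled Pak2-null and at 309, 50.1 and 33.1 CPM in wild-type tumours 19, 20 and 127. Fgfbp1, which releases FGFs from the matrix, had a log2 fold change of -3.50 (SE 1.75).

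MuSK is the receptor that builds the neuromuscular junction: nerve-derived agrin binds LRP4, which activates MuSK, and DOK7 and rapsyn carry the signal to clustered acetylcholine receptors. Musk (chromosome 4, 58285960 to 58374303) had 0.372, 0, 0.494 and 1.27 CPM in tumours 13, 14A, 59 and 61 labelled Pak2-null, 0 CPM in 14B and 4.08, 23.8 and 63.5 CPM in wild-type tumours 19, 20 and 127. The groups were separate, with tumour 127 highest, as for Fgfr4. Its log2 fold change was -5.80 (SE 1.32), with a Benjamini-Hochberg adjusted p of 0.123 in edgeR's quasi-likelihood test. The size of this change is uncertain, because Musk had only 6, 0, 8 and 22 counts in tumours 13, 14A, 59 and 61. Means were 0.534 ± 0.534 CPM in tumours labelled Pak2-null and 30.4 ± 30.3 CPM in wild-type tumours (SD, n = 4 and n = 3).

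The partners of MuSK in the muscle cell, LRP4, DOK7 and rapsyn, had lower mean transcript levels in tumours labelled Pak2-null as well. Lrp4 stood at 10.2, 11.1, 7.53 and 10.2 CPM in tumours 13, 14A, 59 and 61 labelled Pak2-null, at 15.9 CPM in 14B and at 35.9, 53.6 and 124 CPM in wild-type tumours. It had the lowest p of the 17 tested genes in the list of neurotrophin, GDNF, ALK and MuSK partners (log2 fold change -2.84, SE 0.43, edgeR quasi-likelihood, Benjamini-Hochberg adjusted p = 0.0857). Dok7 had 0 to 0.520 CPM in primary tumours labelled Pak2-null, 0 CPM in 14B and 1.62, 24.6 and 52.9 CPM in wild-type tumours 19, 20 and 127, again with tumour 127 highest. With 0, 3, 3 and 9 counts in tumours 13, 14A, 59 and 61, the size of its fold change is uncertain. The fold changes of Dok7 and Rapsn on the log2 scale were -6.87 (SE 1.37) and -4.18 (SE 1.13), and the tumours overlapped for Rapsn, at 6.36 CPM in tumour 59 and 3.01 CPM in tumour 19. Agrn, which encodes agrin, stood at 38.0 to 89.8 CPM in primary tumours labelled Pak2-null and 58.5 to 113 CPM in wild-type tumours (log2 fold change -0.30, SE 0.37).

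Markers of skeletal muscle moved with Musk and Fgfr4. The 14 markers summed to 13.6, 32.3, 379 and 683 CPM in tumours 13, 14A, 59 and 61 labelled Pak2-null, to 15.1 CPM in 14B and to 2425, 27597 and 23815 CPM in wild-type tumours 19, 20 and 127. All 14 were lower at an unadjusted p under 0.05, with 0 passing edgeR's quasi-likelihood test after Benjamini-Hochberg adjustment, 13 passing DESeq2's Wald test, 8 limma-voom with quality weights and 0 limma-voom without weights. In 13 the groups did not overlap. Myod1, a muscle-determining factor, was at 0 in tumours 13 and 14B, and Myog, which drives muscle differentiation, at 0 in tumours 14A and 14B. Their part in the results for Musk, Fgfr4, Lrp4, Dok7 and Rapsn was not tested.

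**Figure D2:**
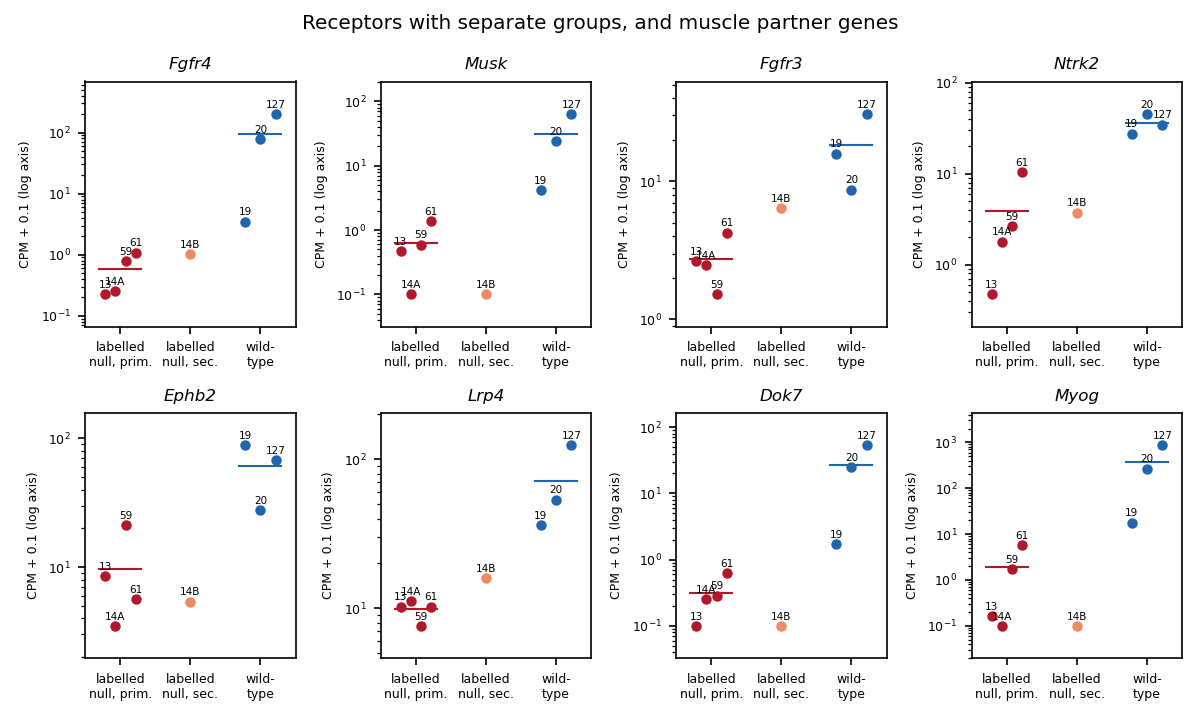
CPM plus 0.1 on a log axis for the 5 receptors with the lowest p among those lower in tumours labelled Pak2-null, for the MuSK partners Lrp4 and Dok7 and for the muscle marker Myog. Points are tumours with their numbers and lines are means of the primary tumours of a group. No panel has a primary tumour labelled Pak2-null as high as the lowest wild-type one, but the panels are a selection. The MuSK partner Rapsn, for which the groups overlap, is not shown.

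Ntrk2 encodes TrkB, the receptor for BDNF and neurotrophin-4. Its transcripts stood at 0.372, 1.70, 2.53 and 10.4 CPM in tumours 13, 14A, 59 and 61 labelled Pak2-null, at 3.63 CPM in 14B and at 27.6, 45.4 and 34.6 CPM in wild-type tumours 19, 20 and 127. Ntrk2 was high in all 3 wild-type tumours, 19 included, and the means were 3.75 ± 4.52 CPM in tumours labelled Pak2-null and 35.9 ± 8.96 CPM in wild-type tumours (SD, n = 4 and n = 3). The log2 difference was -3.25 (SE 0.94), with a Benjamini-Hochberg adjusted p of 0.186 in edgeR's quasi-likelihood test. Bdnf had its highest values in tumours labelled Pak2-null, with 1.39 to 50.0 CPM in primary tumours labelled Pak2-null and 4.94 to 7.08 CPM in the wild-type tumours (log2 fold change 2.10, SE 0.96), and the groups overlapped through tumour 14A. Ngfr, the low-affinity neurotrophin receptor, had 1.61 to 6.37 CPM in primary tumours labelled Pak2-null and 175, 10.1 and 11.2 CPM in wild-type tumours 19, 20 and 127. Ntf5, which encodes neurotrophin-4, had a log2 fold change of -1.96 (SE 0.83). Schwann cell and glial markers, 8 genes, summed to 31.1 to 104 CPM in primary tumours labelled Pak2-null and 73.4 to 124 CPM in wild-type tumours, with 3 at 0 in tumour 13; their part in the Ntrk2 result was not tested.

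Ret, the receptor for the GDNF family, was high in tumour 13 alone, at 25.6 CPM, with 3.75, 3.39 and 2.66 CPM in tumours 14A, 59 and 61 labelled Pak2-null, 3.84 CPM in 14B and 9.60, 9.37 and 6.29 CPM in wild-type tumours 19, 20 and 127. The log2 fold change was 0.10 (SE 0.86), and -1.35 without tumour 13. Gfra2, a GDNF-family co-receptor that works with RET, had 86.9, 32.02, 107 and 70.1 CPM in tumours 13, 14A, 59 and 61 labelled Pak2-null and 19.3, 32.3 and 13.2 CPM in wild-type tumours, with tumour 14A just below tumour 20 (log2 fold change 1.80, SE 0.49, edgeR quasi-likelihood, Benjamini-Hochberg adjusted p = 0.164). Artn, a GDNF-family ligand, had a log2 fold change of -2.22 (SE 0.81). In this partner list of 23 names, 21 were found and 17 tested, with 6 lower and 1 higher at an unadjusted p under 0.05. Alk was detected in tumours 13 and 59 labelled Pak2-null, with 15 and 2 counts, and had 0 counts in the other 6. Ntrk3, the receptor for neurotrophin-3, had between 1 and 58 counts in every tumour, up to 3.35 CPM in tumour 61.

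The Eph receptors bind ephrins on neighbouring cells and guide cell sorting and repulsion, and EphB receptors prefer the membrane-spanning B ephrins. Ephb2 had 8.36, 3.39, 21.05 and 5.54 CPM in tumours 13, 14A, 59 and 61 labelled Pak2-null, 5.29 CPM in 14B and 88.0, 27.7 and 67.8 CPM in wild-type tumours 19, 20 and 127. The groups were separate, though tumours 59 and 20 lay close. The log2 fold change was -2.65 (SE 0.68), at a Benjamini-Hochberg adjusted p of 0.150 in edgeR's quasi-likelihood test, and ran from -3.40 to -2.31 with any 1 tumour left out.

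Ephb3 had 23.1, 3.24, 31.2 and 42.1 CPM in tumours 13, 14A, 59 and 61 labelled Pak2-null, 8.09 CPM in 14B and 50.7, 51.9 and 100.2 CPM in wild-type tumours 19, 20 and 127. No tumour labelled Pak2-null reached the wild-type range, but the distance from tumour 61 to tumour 19 was small (log2 fold change -1.42, SE 0.72). Ephb4, the receptor for ephrin-B2 in veins, was the highest EphB member per length, at a median of 13.8 CPM per kilobase. It stood at 139, 21.3, 59.9 and 62.9 CPM in tumours 13, 14A, 59 and 61 labelled Pak2-null and at 100, 50.7 and 59.7 CPM in wild-type tumours, where the groups were mixed (log2 fold change 0.04, SE 0.58). Ephb1 had 4.09, 0.308, 9.75 and 1.73 CPM in tumours 13, 14A, 59 and 61 labelled Pak2-null and 5.10 to 11.9 CPM in wild-type tumours, and Ephb6, whose kinase domain is inactive, 2.42 to 16.1 and 5.15 to 13.9 CPM in the same order of groups. Neither was separate.

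Of the 6 EphA members 5 could be tested, and none had an unadjusted p under 0.05 by edgeR. Epha1 was dominated by tumour 13, with 95.6 CPM there, 1.75, 3.02 and 6.64 CPM in tumours 14A, 59 and 61 labelled Pak2-null, 11.4 CPM in 14B and 6.77, 5.15 and 2.63 CPM in wild-type tumours. The log2 fold change of 2.49 (SE 1.46) became -0.34 without tumour 13. Epha1 shares 236 exonic bases with Zyx on the opposite strand, which also stood highest in tumour 13, at 833 CPM, and it has a stretch of 455 bases that matches 2010010A06Rik at 95.82% identity, so its level is uncertain. Epha2, a receptor often raised in carcinoma cells, stood at 72.6, 5.81, 86.0 and 68.8 CPM in tumours 13, 14A, 59 and 61 labelled Pak2-null, at 13.5 CPM in 14B and at 14.7, 21.7 and 34.1 CPM in wild-type tumours. Tumours 13, 59 and 61 were above all 3 wild-type tumours, while 14A lay below them (log2 fold change 1.34, SE 0.80).

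Epha3 was the highest EphA member per length, at a median of 10.9 CPM per kilobase, with 10.6, 3.75, 61.8 and 63.4 CPM in tumours 13, 14A, 59 and 61 labelled Pak2-null and 43.0, 64.6 and 70.8 CPM in wild-type tumours. Tumours 13 and 14A were low and the other pair lay in the wild-type range (log2 fold change -0.75, SE 0.88). Epha4 ran from 1.64 to 15.8 CPM in primary tumours labelled Pak2-null and from 3.48 to 20.2 CPM in wild-type tumours. Epha7 was above 2 CPM in tumour 59 alone, at 5.55 CPM. Epha5 had at most 5 counts, in wild-type tumour 127.

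All 8 ephrin genes were tested, with 1 higher and 1 lower at an unadjusted p under 0.05. Efnb2, which encodes ephrin-B2, stood at 151, 13.8, 125 and 177 CPM in tumours 13, 14A, 59 and 61 labelled Pak2-null, at 27.3 CPM in 14B and at 45.2, 26.3 and 20.8 CPM in wild-type tumours, so that 3 of the 4 lay above all wild-type tumours (log2 fold change 1.94, SE 0.78). Efnb3 was high in wild-type tumour 19 alone, at 32.9 CPM, against 0.206 to 1.21 CPM in primary tumours labelled Pak2-null and 1.30 and 1.28 CPM in tumours 20 and 127. Its log2 fold change of -3.88 (SE 1.29) was -0.71 without tumour 19. For Efna5 it was 2.21 (SE 1.08) and for Efna1 -0.83 (SE 0.57).

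AXL, TYRO3 and MERTK, the TAM receptors, bind GAS6 and protein S, which bridge them to phosphatidylserine on dying cells, and AXL is also known in invasive mesenchymal tumour cells. Axl (chromosome 7, 25757273 to 25788705) stood at 1462, 363, 1082 and 831 CPM in tumours 13, 14A, 59 and 61 labelled Pak2-null, at 430 CPM in 14B and at 251, 372 and 316 CPM in wild-type tumours 19, 20 and 127. Tumours 13, 59 and 61 were above every wild-type tumour, and 14A lay within the wild-type range. The means were 935 ± 461 CPM in tumours labelled Pak2-null and 313 ± 60.5 CPM in wild-type tumours (SD, n = 4 and n = 3). The log2 fold change of 1.60 (SE 0.50) had a Benjamini-Hochberg adjusted p of 0.213 in edgeR's quasi-likelihood test, and 0.0801 without tumour 14A. DESeq2's Wald test gave an adjusted p of 0.0219 and limma-voom with quality weights 0.0261.

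Gas6, the ligand of all 3 TAM receptors, had its higher values in the wild-type tumours. It had 232, 49.9, 266 and 219 CPM in tumours 13, 14A, 59 and 61 labelled Pak2-null, 83.0 CPM in 14B and 1148, 565 and 1401 CPM in wild-type tumours 19, 20 and 127. The groups were separate, with a log2 fold change of -2.41 (SE 0.60) and a Benjamini-Hochberg adjusted p of 0.142 in edgeR's quasi-likelihood test. Pros1, which encodes protein S, stood at 115 to 236 CPM in primary tumours labelled Pak2-null and 101 to 141 CPM in wild-type tumours (log2 fold change 0.54, SE 0.30).

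Tyro3 reached 75.4 CPM in tumour 13, with 4.42, 17.3 and 14.3 CPM in tumours 14A, 59 and 61 labelled Pak2-null, 14.2 CPM in 14B and 30.1, 5.71 and 3.91 CPM in wild-type tumours 19, 20 and 127. The groups overlapped, and the log2 fold change of 1.10 (SE 1.08) was -0.12 without tumour 13. Mertk, the TAM receptor of macrophages, varied least, with a highest over lowest ratio of 2.30 among the primary tumours. It had 23.3 to 34.1 CPM in primary tumours labelled Pak2-null, 22.2 CPM in 14B and 14.8 to 28.6 CPM in wild-type tumours (log2 fold change 0.51, SE 0.32). The 8 macrophage markers, 0 of which had an unadjusted p under 0.05, summed to 2201 to 8210 CPM in primary tumours labelled Pak2-null and 1131 to 2509 CPM in wild-type tumours. In tumours 14A and 14B, where this sum was highest, Mertk stood at 25.4 and 22.2 CPM. The part of macrophages in the Mertk level was not tested.

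**Figure D3:**
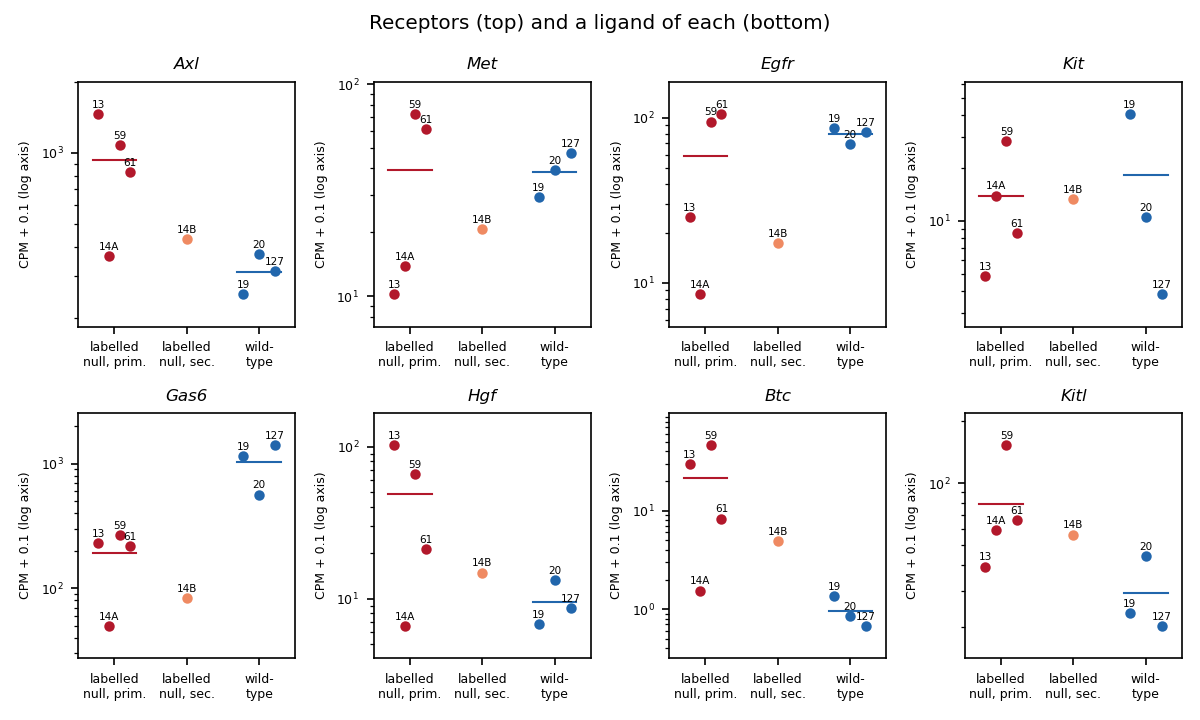
CPM plus 0.1 on a log axis for 4 receptors (top row) and a ligand of each (bottom row), with points for tumours and lines for the means of primary tumours in a group. Axl is high in tumours 13, 59 and 61 while Gas6 is lower in every tumour labelled Pak2-null than in the wild-type ones, and Met, Egfr and Kit overlap between the groups.

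The EGF receptors are activated by a set of ligands that includes betacellulin and HB-EGF, and by neuregulins through ERBB3 and ERBB4. Erbb3, which signals by pairing with ERBB2, had 2.79, 10.3, 10.9 and 27.7 CPM in tumours 13, 14A, 59 and 61 labelled Pak2-null, 9.43 CPM in 14B and 17.6, 23.0 and 61.2 CPM in wild-type tumours. Only tumour 61 reached the wild-type range (log2 fold change -1.38, SE 0.75). Erbb2 was the highest of the family per length, at a median of 8.41 CPM per kilobase, with 46.8, 6.27, 29.3 and 42.2 CPM in tumours 13, 14A, 59 and 61 labelled Pak2-null and 57.8, 31.8 and 104 CPM in wild-type tumours (log2 fold change -1.03, SE 0.67).

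Egfr stood at 24.8, 8.43, 94.9 and 106 CPM in tumours 13, 14A, 59 and 61 labelled Pak2-null and at 86.8, 69.2 and 81.8 CPM in wild-type tumours. The wild-type tumours were close together and lay between the low and the high pair of the other group (log2 fold change -0.42, SE 0.76). Erbb4 had 0 counts in all 4 primary tumours labelled Pak2-null, 2 counts in 14B and 16, 0 and 1 counts in wild-type tumours 19, 20 and 127.

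Of 11 EGF-family ligand genes 10 were tested, with 1 higher and 1 lower at an unadjusted p under 0.05. Btc, which encodes betacellulin, had 29.7, 1.44, 45.7 and 8.20 CPM in tumours 13, 14A, 59 and 61 labelled Pak2-null, 4.77 CPM in 14B and 1.25, 0.745 and 0.578 CPM in wild-type tumours. All tumours labelled Pak2-null were above all wild-type tumours, 14A narrowly (log2 fold change 4.64, SE 1.20, edgeR quasi-likelihood, Benjamini-Hochberg adjusted p = 0.150). Hbegf stood at 173, 4.52, 47.2 and 38.4 CPM in tumours 13, 14A, 59 and 61 labelled Pak2-null and at 10.8 to 17.0 CPM in wild-type tumours, where 14A was the exception (log2 fold change 2.18, SE 1.03). Ereg, which encodes epiregulin, had a log2 fold change of 1.99 (SE 1.08) and Egf one of -2.40 (SE 1.02).

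MET binds HGF and MST1R binds the related factor MSP. Met stood at 10.1, 13.8, 72.2 and 61.1 CPM in tumours 13, 14A, 59 and 61 labelled Pak2-null and at 29.2, 39.2 and 47.1 CPM in wild-type tumours, which again lay between a low and a high pair (log2 fold change 0.05, SE 0.70). Mst1r had 1.49 to 5.68 CPM in primary tumours labelled Pak2-null and 4.68 to 16.9 CPM in wild-type tumours (log2 fold change -1.13, SE 0.64). Hgf had 102, 6.53, 65.9 and 21.2 CPM in tumours 13, 14A, 59 and 61 labelled Pak2-null, 14.7 CPM in 14B and 6.68, 13.2 and 8.54 CPM in wild-type tumours. It was the 1 gene of 5 tested in its list with an unadjusted p under 0.05 (log2 fold change 2.40, SE 0.90, edgeR quasi-likelihood, Benjamini-Hochberg adjusted p = 0.319), and 14A lay below the wild-type range. The protease inhibitors Spint1 and Spint2, which hold back HGF activation, differed by 2.12 (SE 1.54) and 0.71 (SE 1.17) on the log2 scale, and the protease Hpn by 0.22 (SE 0.52).

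Log2 fold changes were close to 0 for the insulin receptor and the IGF1 receptor, which control growth and metabolism. Igf1r had 40.3, 11.1, 41.4 and 34.2 CPM in tumours 13, 14A, 59 and 61 labelled Pak2-null and 43.4, 17.6 and 34.6 CPM in wild-type tumours (log2 fold change 0.02, SE 0.50). Insr had 62.5, 30.8, 79.0 and 50.4 CPM in tumours 13, 14A, 59 and 61 labelled Pak2-null and 28.5, 50.1 and 76.9 CPM in wild-type tumours (log2 fold change 0.13, SE 0.43). In both the groups overlapped almost fully. Their ligand Igf2, a fetal growth factor that also acts through these receptors in muscle, stood at 2.85, 2.62, 5.49 and 17.2 CPM in tumours 13, 14A, 59 and 61 labelled Pak2-null, at 1.55 CPM in 14B and at 2633, 973 and 4736 CPM in wild-type tumours 19, 20 and 127. This was the largest difference among the 164 tested partner genes, with a log2 fold change of -8.61 (SE 1.05) and a Benjamini-Hochberg adjusted p of 0.0540 in edgeR's quasi-likelihood test. Igf1 had 26.5 to 86.1 CPM in primary tumours labelled Pak2-null and 127 to 192 CPM in wild-type tumours, also separate (log2 fold change -1.45, SE 0.45). Among the binding proteins, Igfbp2 had a log2 fold change of -3.39 (SE 1.71) and Igfbp7 one of -0.54 (SE 0.36). The 2 insulin genes were found in tumours 14A and 14B: Ins2 stood at 45.9 and 479 CPM there and at up to 0.0642 CPM elsewhere.

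The PDGF receptors mark and drive mesenchymal cells, PDGFRA in fibroblasts and PDGFRB in pericytes and smooth muscle. Pdgfrb stood at 378, 28.9, 207 and 248 CPM in tumours 13, 14A, 59 and 61 labelled Pak2-null, at 71.1 CPM in 14B and at 252, 162 and 322 CPM in wild-type tumours. Except for 14A the groups were mixed (log2 fold change -0.16, SE 0.72). Pdgfra had 150, 35.9, 423 and 189 CPM in tumours 13, 14A, 59 and 61 labelled Pak2-null and 254, 96.8 and 88.0 CPM in wild-type tumours (log2 fold change 0.47, SE 0.77). Both were lowest in 14A, as was the sum of the fibroblast markers. Of these markers, Pi16 and Clec3b were instead lowest in tumour 13 among the primary tumours, at 3.84 and 4.33 CPM, and the others in 14A. The 7 pericyte and smooth muscle markers summed to 179 to 703 CPM in primary tumours labelled Pak2-null and 944 to 1619 CPM in wild-type tumours, with 5 lower at an unadjusted p under 0.05, 0 passing edgeR after adjustment, 2 passing DESeq2 and 3 passing limma-voom with quality weights, all lower. The groups were separate for this sum and overlapped for Pdgfrb, and the part of these cells in the Pdgfrb level was not tested.

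Kit, the receptor of mast cells and several stem cells, had 4.77, 13.8, 28.3 and 8.43 CPM in tumours 13, 14A, 59 and 61 labelled Pak2-null and 40.5, 10.4 and 3.72 CPM in wild-type tumours 19, 20 and 127 (log2 fold change -0.38, SE 0.87). The 8 mast cell markers summed to 14.4, 61.5, 111 and 59.0 CPM in the same primary tumours labelled Pak2-null and to 153, 186 and 29.5 CPM in wild-type tumours. Flt3, a receptor of dendritic cell precursors, was highest in tumour 14A, at 12.4 CPM, with 2.23 to 4.62 CPM in the other primary tumours labelled Pak2-null and 1.41 to 5.66 CPM in wild-type tumours (log2 fold change 0.62, SE 0.72). The sum of the 8 dendritic cell markers was also highest there, at 257 CPM against at most 83.5 CPM in the other primary tumours. Batf3 made up 118 CPM of it. Zbtb46, Xcr1 and Cd209a each had their highest value in another primary tumour, and the other markers in 14A. In 14B the 8 dendritic cell markers summed to 172 CPM while Flt3 stood at 2.28 CPM there, and their part in the Flt3 level was not tested. Kitl, the KIT ligand, stood at 39.3, 59.1, 152 and 66.1 CPM in tumours 13, 14A, 59 and 61 labelled Pak2-null and at 23.2, 43.9 and 20.2 CPM in wild-type tumours, overlapping only through tumours 13 and 20 (log2 fold change 1.46, SE 0.53). It was the 1 gene of 8 in the ligand list with an unadjusted p under 0.05. Il34 and Csf1, ligands of the macrophage receptor CSF1R, differed by 1.86 (SE 0.81) and 0.82 (SE 0.62) on the log2 scale, and Pdgfc by 0.40 (SE 0.83).

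The discoidin receptors are activated by collagen. Ddr2, the form of mesenchymal cells, had 445, 42.8, 297 and 170 CPM in tumours 13, 14A, 59 and 61 labelled Pak2-null and 97.5, 127 and 164 CPM in wild-type tumours (log2 fold change 0.91, SE 0.70). Ddr1, the epithelial form, had 78.6, 12.1, 42.3 and 74.5 CPM in the same tumours labelled Pak2-null and 68.0, 79.0 and 190 CPM in wild-type tumours (log2 fold change -1.09, SE 0.65). Tumours 13, 59 and 61 lay above the wild-type range for Ddr2, while for Ddr1 the groups overlapped. The 9 epithelial markers summed to 9.60 to 353 CPM in primary tumours labelled Pak2-null and 17.1 to 356 CPM in wild-type tumours.

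Per length, Axl led the members, at a median of 87.2 CPM per kilobase over the 7 primary tumours, followed by Fgfr1, Pdgfrb (45.8), Pdgfra (22.9), Ddr2 (19.8) and Ddr1 (19.2). The 37 members summed to 766, 149, 607 and 509 CPM per kilobase in tumours 13, 14A, 59 and 61 labelled Pak2-null, to 212 in 14B and to 376, 345 and 530 in wild-type tumours 19, 20 and 127. Axl made up 44.8%, 57.0%, 41.8% and 38.3% of this sum in tumours 13, 14A, 59 and 61, 47.5% in 14B and 15.6%, 25.2% and 14.0% in the wild-type tumours. So Axl's share was separate between the groups even though its level was not. In tumour 14A, Axl stood at 85.2 CPM per kilobase, within the wild-type range of 58.8 to 87.2, and the sum over the members was the lowest of any tumour. The high share of Axl there came with a low sum rather than a high Axl level. Axl ranked first per length in every tumour but 127, where Fgfr1 did with 14.99%.

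**Figure D4:**
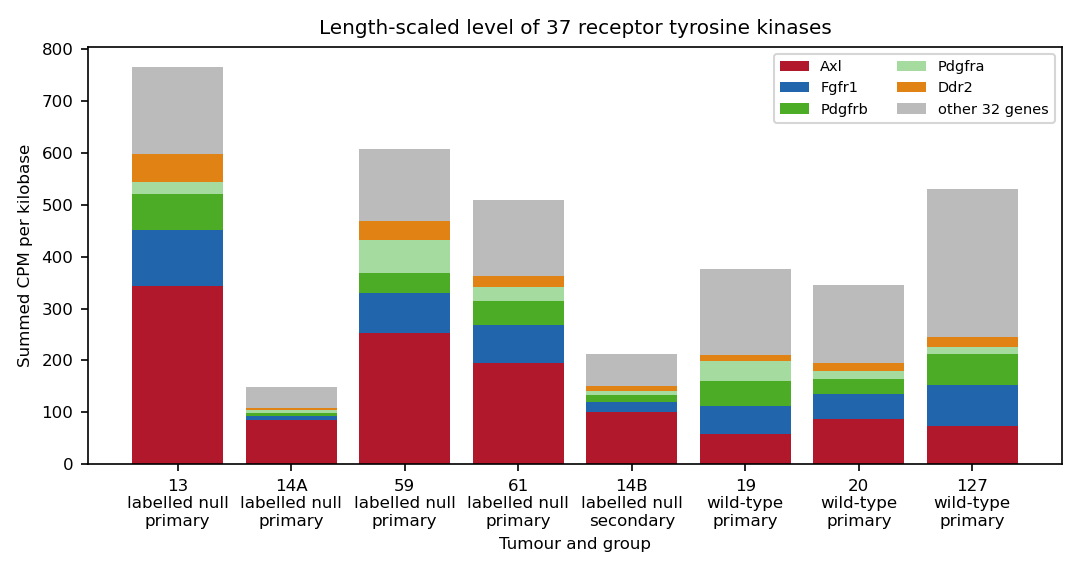
Summed level of the 37 receptor genes in CPM per kilobase in each tumour, split into the 5 highest genes and the rest. Axl takes 38.3% to 57.0% of the sum in primary tumours labelled Pak2-null and 14.0% to 25.2% in wild-type tumours, and tumours 14A and 14B have the lowest sums.

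Tumour 14A was the lowest of the 7 primary tumours for 17 of the 33 tested members, where it was lowest for 24% of all tested genes, and the highest for 1, Flt3 (24.9%). Tumour 127 was highest for 9 members (16.9%), tumour 13 for 8 (15.2%), tumours 59 and 19 for 6 each (6.21% and 16.1%), tumour 61 for 2 (10.5%) and tumour 20 for 1 (10.3%). The lowest value fell in tumour 13 for 7 members (20.3%), in tumour 127 for 5 (14.9%), in tumour 19 for 2 (16.6%), in tumours 59 and 61 for 1 each (7.81% and 6.33%) and in tumour 20 for 0 (9.96%). The secondary tumour 14B, a single sample with no test, lay within the range of the 4 primary tumours of its label for most of the tested members. Among the tested members 14B was below all 4 for Mertk, Epha3, Epha4 and Ephb1 (15.5% of all tested genes) and above all 4 for Fgfr3 (16.2%). The largest of these gaps, as a difference in log2 CPM from the mean of the 4, were -2.87 for Ephb1 and -2.59 for Epha3.

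Downstream of the receptors, 36 of 38 adaptor and proximal effector genes were tested, with 2 higher and 3 lower at an unadjusted p under 0.05 and 0 passing. Grb10, an adaptor that dampens insulin and IGF receptor signalling, stood at 106, 23.0, 65.3 and 48.7 CPM in tumours 13, 14A, 59 and 61 labelled Pak2-null, at 48.2 CPM in 14B and at 459, 282 and 511 CPM in wild-type tumours. Dok1, an adaptor that attenuates RAS, had 211, 85.6, 122 and 115 CPM in tumours 13, 14A, 59 and 61 labelled Pak2-null and 51.1, 44.9 and 36.1 CPM in wild-type tumours. Both were separate, differing by -2.75 (SE 0.52) and 1.62 (SE 0.35) on the log2 scale, with Benjamini-Hochberg adjusted p values of 0.111 and 0.123 in edgeR's quasi-likelihood test. Pik3r3, a regulatory PI3K subunit, had a log2 fold change of -1.65 (SE 0.48), and Sh2b3 one of 0.86.

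Among inhibitors, ubiquitin ligases and phosphatases, 21 of 23 names were tested, with 3 higher and 1 lower at an unadjusted p under 0.05 and 0 passing. Cbl, the ubiquitin ligase that sends active receptors to lysosomes, had 46.8, 53.5, 46.6 and 33.0 CPM in tumours 13, 14A, 59 and 61 labelled Pak2-null and 26.9, 17.9 and 23.2 CPM in wild-type tumours, with the groups separate (log2 fold change 1.01, SE 0.26). Its partner Sh3kbp1 had a log2 fold change of 1.58 (SE 0.39), the EGFR inhibitor Errfi1 one of 2.06 (SE 0.75), and Lrig3 one of -1.85 (SE 0.71).

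Of the feedback genes that ERK switches on, 12 of 13 had a log2 fold change above 0, with 6 higher and 0 lower at an unadjusted p under 0.05 and a median log2 fold change of 1.07 beside 0.06 over all genes. None passed edgeR's quasi-likelihood test, where the lowest Benjamini-Hochberg adjusted p in the list was 0.118. DESeq2's Wald test passed 3 as higher and limma-voom with quality weights 4. Dusp4, an ERK phosphatase, stood at 159, 30.5, 140 and 113 CPM in tumours 13, 14A, 59 and 61 labelled Pak2-null, at 51.8 CPM in 14B and at 17.0, 18.6 and 19.4 CPM in wild-type tumours, with no overlap (log2 fold change 2.62, SE 0.55). Etv4, an ETS factor downstream of FGF and ERK signalling, had 191, 6.06, 73.0 and 50.3 CPM in the same tumours labelled Pak2-null and 10.2 to 11.0 CPM in wild-type tumours, with 14A below them (log2 fold change 2.92, SE 0.99). Dusp5 had a log2 fold change of 1.88 (SE 0.54) and Etv5 one of 1.07 (SE 0.37). Spry1, the 1 gene of the list below 0, stood at 8.27 to 41.7 CPM in primary tumours labelled Pak2-null and 18.5 to 75.5 CPM in wild-type tumours.

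Of 21 other receptor tyrosine kinases outside the 37, 15 were tested, with 1 higher and 1 lower at an unadjusted p under 0.05. Styk1 had 7.93, 0.617, 11.9 and 21.8 CPM in tumours 13, 14A, 59 and 61 labelled Pak2-null and 0.0642 to 1.44 CPM in wild-type tumours (log2 fold change 3.97, SE 1.35). Tek, the angiopoietin receptor of endothelium, had 11.9 to 25.9 CPM in primary tumours labelled Pak2-null and 27.9 to 45.2 CPM in wild-type tumours (log2 fold change -0.85, SE 0.32), and Tie1 and Csf1r had -0.64 (SE 0.43) and 0.72 (SE 0.43). The 7 endothelial markers, which include Tek and Tie1, summed to 255 to 591 CPM in primary tumours labelled Pak2-null and 331 to 815 CPM in wild-type tumours. Over all 164 tested partner genes, 17 were higher and 21 lower at an unadjusted p under 0.05, where 4.39% and 8.55% of all tested genes were. Their median log2 fold change was 0.05. None of the 164 passed edgeR's adjusted test. DESeq2 passed 9 as higher and 10 as lower, where 2.08% and 5.63% of all genes passed. Limma-voom with quality weights passed 10 and 8, where 1.58% and 4.59% of all genes passed.

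**Figure D5:**
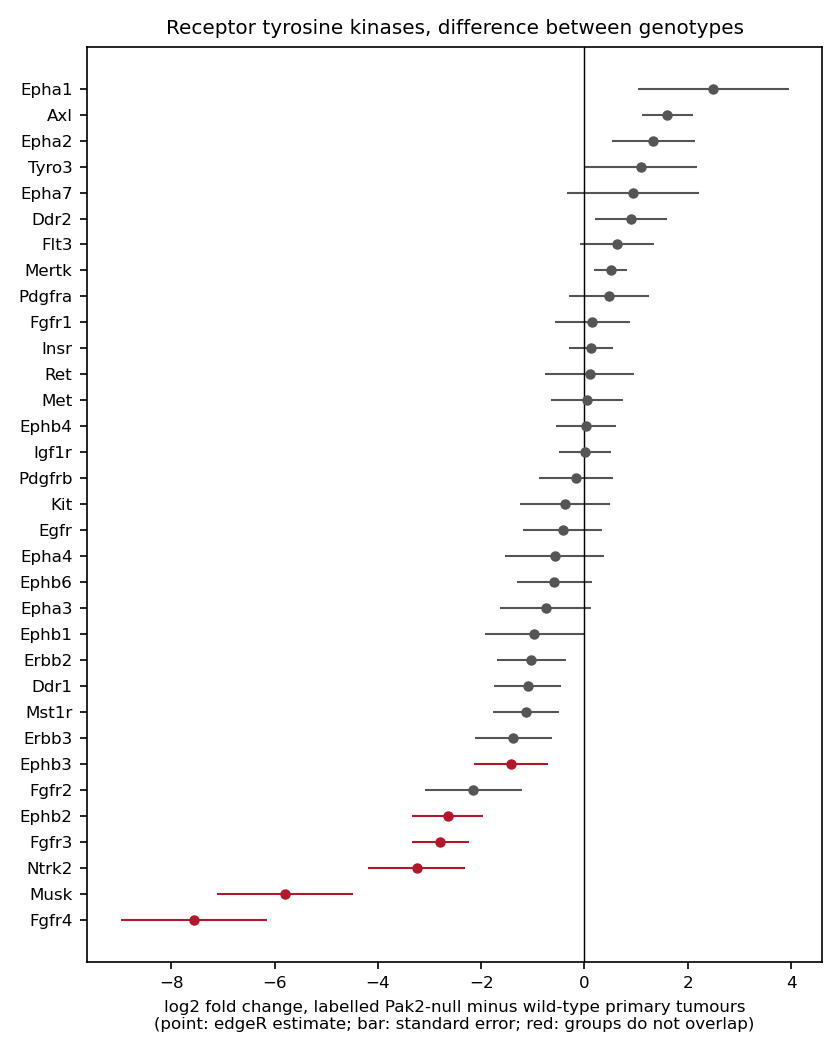
Log2 fold change of the 33 tested members, labelled Pak2-null minus wild-type primary tumours, with edgeR standard errors. The 6 red genes have groups that do not overlap, all on the negative side, from Fgfr4 at -7.57 to Ephb3 at -1.42, and Axl at 1.60 has the shortest error bar relative to its size on the positive side.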

How the data were processed

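Per the labels' protocols, total RNA came from tumours ground in liquid nitrogen, and its mRNA was enriched, fragmented and amplified by PCR into Illumina libraries. The authors deposited unnormalised read counts per gene, 1 column per tumour, with gene lengths. STAR and HTSeq were used with GRCm38 (mm10), per the submitters' processing notes; the sources used here do not give versions, annotation, strand setting or filters. The table held 8 count columns, 0 of other samples, and coordinates are those it gives.

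The fit used edgeR 4.0.16 under R 4.3.3 (filterByExpr, minimum count 10 and total 15; TMM; quasi-likelihood test; Benjamini-Hochberg adjustment over 15412 genes), 4 primary tumours labelled Pak2-null against 3 wild-type, with no covariate. Standard errors are the size of the log2 fold change over the root of F. CPM used tested-gene totals and TMM factors over all 8 tumours, and levels per kilobase the deposited gene length. The fit was also run on simulated counts with known changes and the same spread for every gene. That run checks the contrast and its direction, not how the fit performs at the spread of these tumours. Alternatives used DESeq2 1.42.0, limma 3.58.1, other normalisations and filters, tumour 14B added, and each tumour left out; limma-voom without quality weights was chosen after seeing the data. Exon overlaps came from GENCODE M21, copies from BLAST 2.17.0 (at least 200 bases at 95% identity), promoters from RefSeq. Besides Fgfr2, Fgfr3 and Epha1, exons of Pdgfra, Ddr1, Ddr2, Fgfr1, Ephb1, Ephb4 and Erbb2 overlapped another gene. The shared bases ran from 9 in Erbb2 to 456 in Pdgfra (with Gm42802), and the levels of these members carry the same uncertainty.

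The members, partner lists and marker lists were chosen with earlier results of these data known. The text names, in each family, the members with the lowest p, the highest level per length and the widest range, and from each partner list up to 4 tested genes with the lowest p and the direct ligands of members; Ngfr and Spry1 were chosen after their values were seen. Of 13 marker lists, adipocyte markers summed to 26.5 to 177 CPM in primary tumours labelled Pak2-null and 116 to 770 CPM in wild-type tumours, lymphocyte markers to 4.95 to 336 and 18.0 to 72.4 CPM, and neuronal markers to 13.8 to 263 and 23.3 to 42.3 CPM, the groups in the same order; the others stand in the report.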

Additional observations from a re-analysis of the deposited data

Results flagged for a closer look

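In 92 genes, the members and named partner genes with at least 10 counts in 1 of the 4 tumours (35 of the 37 members), the highest or the lowest of the 4 primary tumours labelled Pak2-null was checked for standing apart, by whether its gap to the nearest tumour took up more of the group's range than Dixon's criterion for 4 samples allows. This picked out 10 genes, 3 in tumour 13, 3 in tumour 14A, 1 in tumour 59 and 3 in tumour 61, all through a high value except Agrn in 14A. With normally distributed values chance picks out about 1 group in 20, but the check used CPM without a logarithm, and the rate for such values was not determined.

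In tumour 13, Epha1 stood at 95.6 CPM (the next tumour of its group had 6.64 CPM), Ret at 25.6 CPM (next 3.75 CPM) and Alk at 0.929 CPM (next 0.123 CPM). In tumour 61, Fgfr2 stood at 14.4 CPM (next 3.52 CPM), Igfbp2 at 54.4 CPM (next 1.48 CPM) and Fgfbp1 at 1.39 CPM (next 0.0617 CPM). In tumour 59, Epha7 stood at 5.55 CPM (next 0.578 CPM). In tumour 14A, Ins2 stood at 45.9 CPM (next 0.0619 CPM), Ins1 at 25.7 CPM (next 0 CPM) and Agrn, the low one, at 38.0 CPM (next 82.7 CPM). For Fgfr2, Igfbp2 and Fgfbp1 the value in tumour 61 lay within the wild-type range.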

How the results depend on the processing

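Over 18 alternatives, 19 of the 33 tested members kept the sign of their log2 fold change and 14 changed it at least once. The number of members passing as lower was 5 with DESeq2, 2 with limma-voom with quality weights, 1 with tumour 14B added and 0 to 1 with any 1 tumour left out (1 without tumour 19), against 0 in edgeR as reported. As higher, 1 passed with DESeq2 and 1 with limma-voom with quality weights. Of the partner genes, 9 passed as higher with DESeq2 (2.08% of all genes) and 10 with limma-voom with quality weights (1.58%). Leaving out any 1 tumour let 0 to 1 pass as higher (1 without 14A, where 3 of all 15086 genes did). As lower, 10 passed with DESeq2 (5.63%), 8 with limma-voom with quality weights (4.59%) and 5 with 14B added (1.08%). With no filter 1 was lower (10 of all 23641 genes) and with limma-voom without weights 1 (0.13%). With any 1 left out 0 to 1 passed as lower (1 without 19, 0.345%).

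The cause of each change of sign was not tested. With 14B added, log2 fold changes turned to -0.0603 for Fgfr1, -0.0893 for Met, -0.13 for Igf1r, -0.0750 for Ret and -0.0965 for Ephb4. With limma-voom without weights they turned to -0.30 for Fgfr1, -0.41 for Met, -0.0977 for Igf1r, -0.64 for Ret, -0.20 for Ephb4, -0.33 for Pdgfc and -0.30 for Spint2. With quality weights they turned to 0.88 for Kit, 0.44 for Epha4, 0.0518 for Pdgfrb, -0.93 for Ret, -0.0622 for Pdgfc and 0.12 for Agrn. Upper quartile scaling gave -0.0178 for Ephb4 and -0.0133 for Igf1r, and library size alone -0.0454 for Ephb4, -0.0235 for Igf1r and -0.0263 for Ret. With any 1 tumour left out, ranges that crossed 0 were -0.19 to 0.52 for Fgfr1, -0.44 to 0.37 for Met, -0.27 to 0.30 for Igf1r, -0.18 to 0.51 for Insr, -0.23 to 1.12 for Pdgfra, -0.59 to 0.20 for Pdgfrb, -1.01 to 0.97 for Kit, -0.0231 to 0.97 for Flt3, -0.12 to 2.54 for Tyro3, -1.35 to 0.41 for Ret, -0.34 to 2.88 for Epha1, -1.57 to 0.62 for Epha4, -1.15 to 1.93 for Epha7, -0.53 to 0.37 for Ephb4, -0.0639 to 1.49 for Fgf1, -0.0290 to 0.51 for Hpn and -0.49 to 0.78 for Pdgfc. The median over tested genes moved by under 0.1 on the log2 scale in every alternative. No paired analysis was possible because the primary groups compared share no tumour numbers. Tumours 14A and 14B share the number 14, and the fit with 14B added counts them as separate replicates. Depth limits genes near 3 counts, such as Alk, Erbb4 and Epha5. It also limits the size of the fold changes of Fgfr4, Musk and Dok7, which had few counts in tumours labelled Pak2-null.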
